A study of Mus musculus with 6 samples.

Results

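The class 3 semaphorins are secreted guidance cues, and 5 of them (Sema3a, Sema3c, Sema3d, Sema3e and Sema3f) were followed with the co-receptors Nrp1 and Nrp2 and the signalling receptors Plxna2, Plxna4 and Plxnd1. These 10 genes of 32285 listed features were chosen by name, with earlier results of these data known. They stand as candidate sources and receivers of axon and vessel guidance in a cortical scar. Their unique molecular identifiers (UMIs) were summed in each library and in classes of nuclei named by marker genes, and expressed as CPM, a gene's counts per 1000000 non-mitochondrial UMIs. Single nuclei were sequenced from photothrombotic lesions of mouse sensory cortex, in which light activates the dye Rose Bengal and clots the vessels beneath it, and the lesions were dissected 7 or 21 days after it (dpi, days post-injury). At each time there was a Ctrl library from mice labelled WT, a library from mice given ADWA11 on the day of injury and weekly after it, an antibody that blocks the integrin αvβ8 and so the release of active TGFβ, and a library from Tgfbr2-cKO mice. In Tgfbr2-cKO mice floxed Tgfbr2 was combined with Col1a2 creER, a Cre that tamoxifen switches on, so the receptor was targeted in fibroblasts that had used the Col1a2 promoter when tamoxifen was given, and mice were 7 to 21 weeks old unless stated otherwise. Every library was 1 pool of nuclei from 1 female and 1 male mouse, so there was 1 library per group, no replicate and no test. Brackets after a level or a log2 ratio hold its exact 95% interval, which covers counting error only and neither mice nor library preparation. The part of each difference that lies in the mouse, the injection or the dissection cannot be told apart from the treatment.

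Class 3 semaphorins act on a receptor made of a neuropilin, which binds the ligand, and a plexin, which signals to the cytoskeleton. Sema3a is best known for collapsing growth cones through Nrp1 and A-type plexins, Sema3f acts mainly through Nrp2, and Sema3e differs in that it can bind Plxnd1 directly on endothelial cells. Neuropilins also bind vascular endothelial growth factors, and fibroblasts of brain and spinal scars have long been known as a source of class 3 semaphorins that repel regrowing axons.

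The ligand genes Sema3d (chr5:12383385-12588948, plus strand), Sema3a (chr5:13125414-13602565, plus), Sema3e (chr5:14025276-14256689, plus) and Sema3c (chr5:17574281-17730268, plus) lie in this order on 1 stretch of chromosome 5 in GRCm38, while Sema3f lies at chr9:107681500-107710475 on the minus strand. The receptor genes lie at chr8:128358604-128503363 (Nrp1, plus), chr1:62703285-62818695 (Nrp2, plus), chr1:194618218-194816869 (Plxna2, plus), chr6:32144268-32588192 (Plxna4, minus) and chr6:115954811-115995005 (Plxnd1, minus).

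Because 2 of the 3 conditions act on TGFβ signalling, the 250 bases before the RefSeq start site (GRCm38.p6) were searched for the short SMAD box that receptor-activated SMADs can bind, CAGAC or its reverse complement GTCTG, which are the same box read on the 2 strands and cannot overlap each other within these letters. An entry was found for 8 of the 10 members, all but Sema3f and Plxna4, and a box stood in 2 of them, Sema3d and Plxna2. Among 32851 promoters of that length 42.2% held at least 1 box and 11.7% at least 2. The promoters of Sema3d and Sema3e are shown because they are the ligand with 2 boxes, beginning 160 and 94 bases before the start site, and a ligand with none that was higher in the Tgfbr2-cKO library at 21 dpi. They lie at chr5:12382916-12383165 and chr5:14025026-14025275 on the plus strand, overlap no annotated exon of their own gene, and capitals mark the box. A match is a string of letters and not an occupied site.
Sema3d: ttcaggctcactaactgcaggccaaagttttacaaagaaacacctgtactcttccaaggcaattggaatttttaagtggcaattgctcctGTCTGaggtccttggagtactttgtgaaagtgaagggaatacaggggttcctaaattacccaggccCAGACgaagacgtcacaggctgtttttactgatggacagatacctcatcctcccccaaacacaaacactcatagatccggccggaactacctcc
Sema3e: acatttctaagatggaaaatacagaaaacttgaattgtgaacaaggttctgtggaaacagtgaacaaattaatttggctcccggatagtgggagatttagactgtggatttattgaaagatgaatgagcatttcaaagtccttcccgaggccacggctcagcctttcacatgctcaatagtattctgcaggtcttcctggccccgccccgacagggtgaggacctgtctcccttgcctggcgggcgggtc

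The 6 libraries held 64798965 to 140310354 UMIs, and 61917 nuclei passed the filters, 6583 to 13083 per library with a median of 4607 to 8462 UMIs. Classes were named by markers and stand for fibroblast-like, endothelial-like nuclei and so on, with the member genes kept out of the clustering. Of the class markers searched in every library, only the mural marker Higd1b was at 0, in the ADWA11-treated library at 21 dpi. The fibroblast class held 2429, 2951 and 421 nuclei in the Ctrl, ADWA11-treated and Tgfbr2-cKO libraries at 7 dpi and 6439, 3426 and 1083 at 21 dpi. The Tgfbr2-cKO library at 7 dpi stood apart, since 3948 of its nuclei (37.3%) were excitatory neurons against 95 in the Ctrl and 14 in the ADWA11-treated library, and it also held an inhibitory cluster with the striatal genes Drd1, Drd2 and Rgs9. Tgfbr2 in fibroblasts was at 330.1, 252.4 and 244.6 CPM at 7 dpi and 234.8, 203.1 and 191.7 CPM at 21 dpi in that order, but counting from the 3′ end is not tied to the floxed exons, so these levels do not check the deletion. Pairs of libraries shared 21 to 61 cell barcodes, 0.233% to 0.513% of the smaller library. Levels are compared between classes and libraries within a gene and never between genes, because CPM does not correct for how well each gene is captured.

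**Figure D1:**
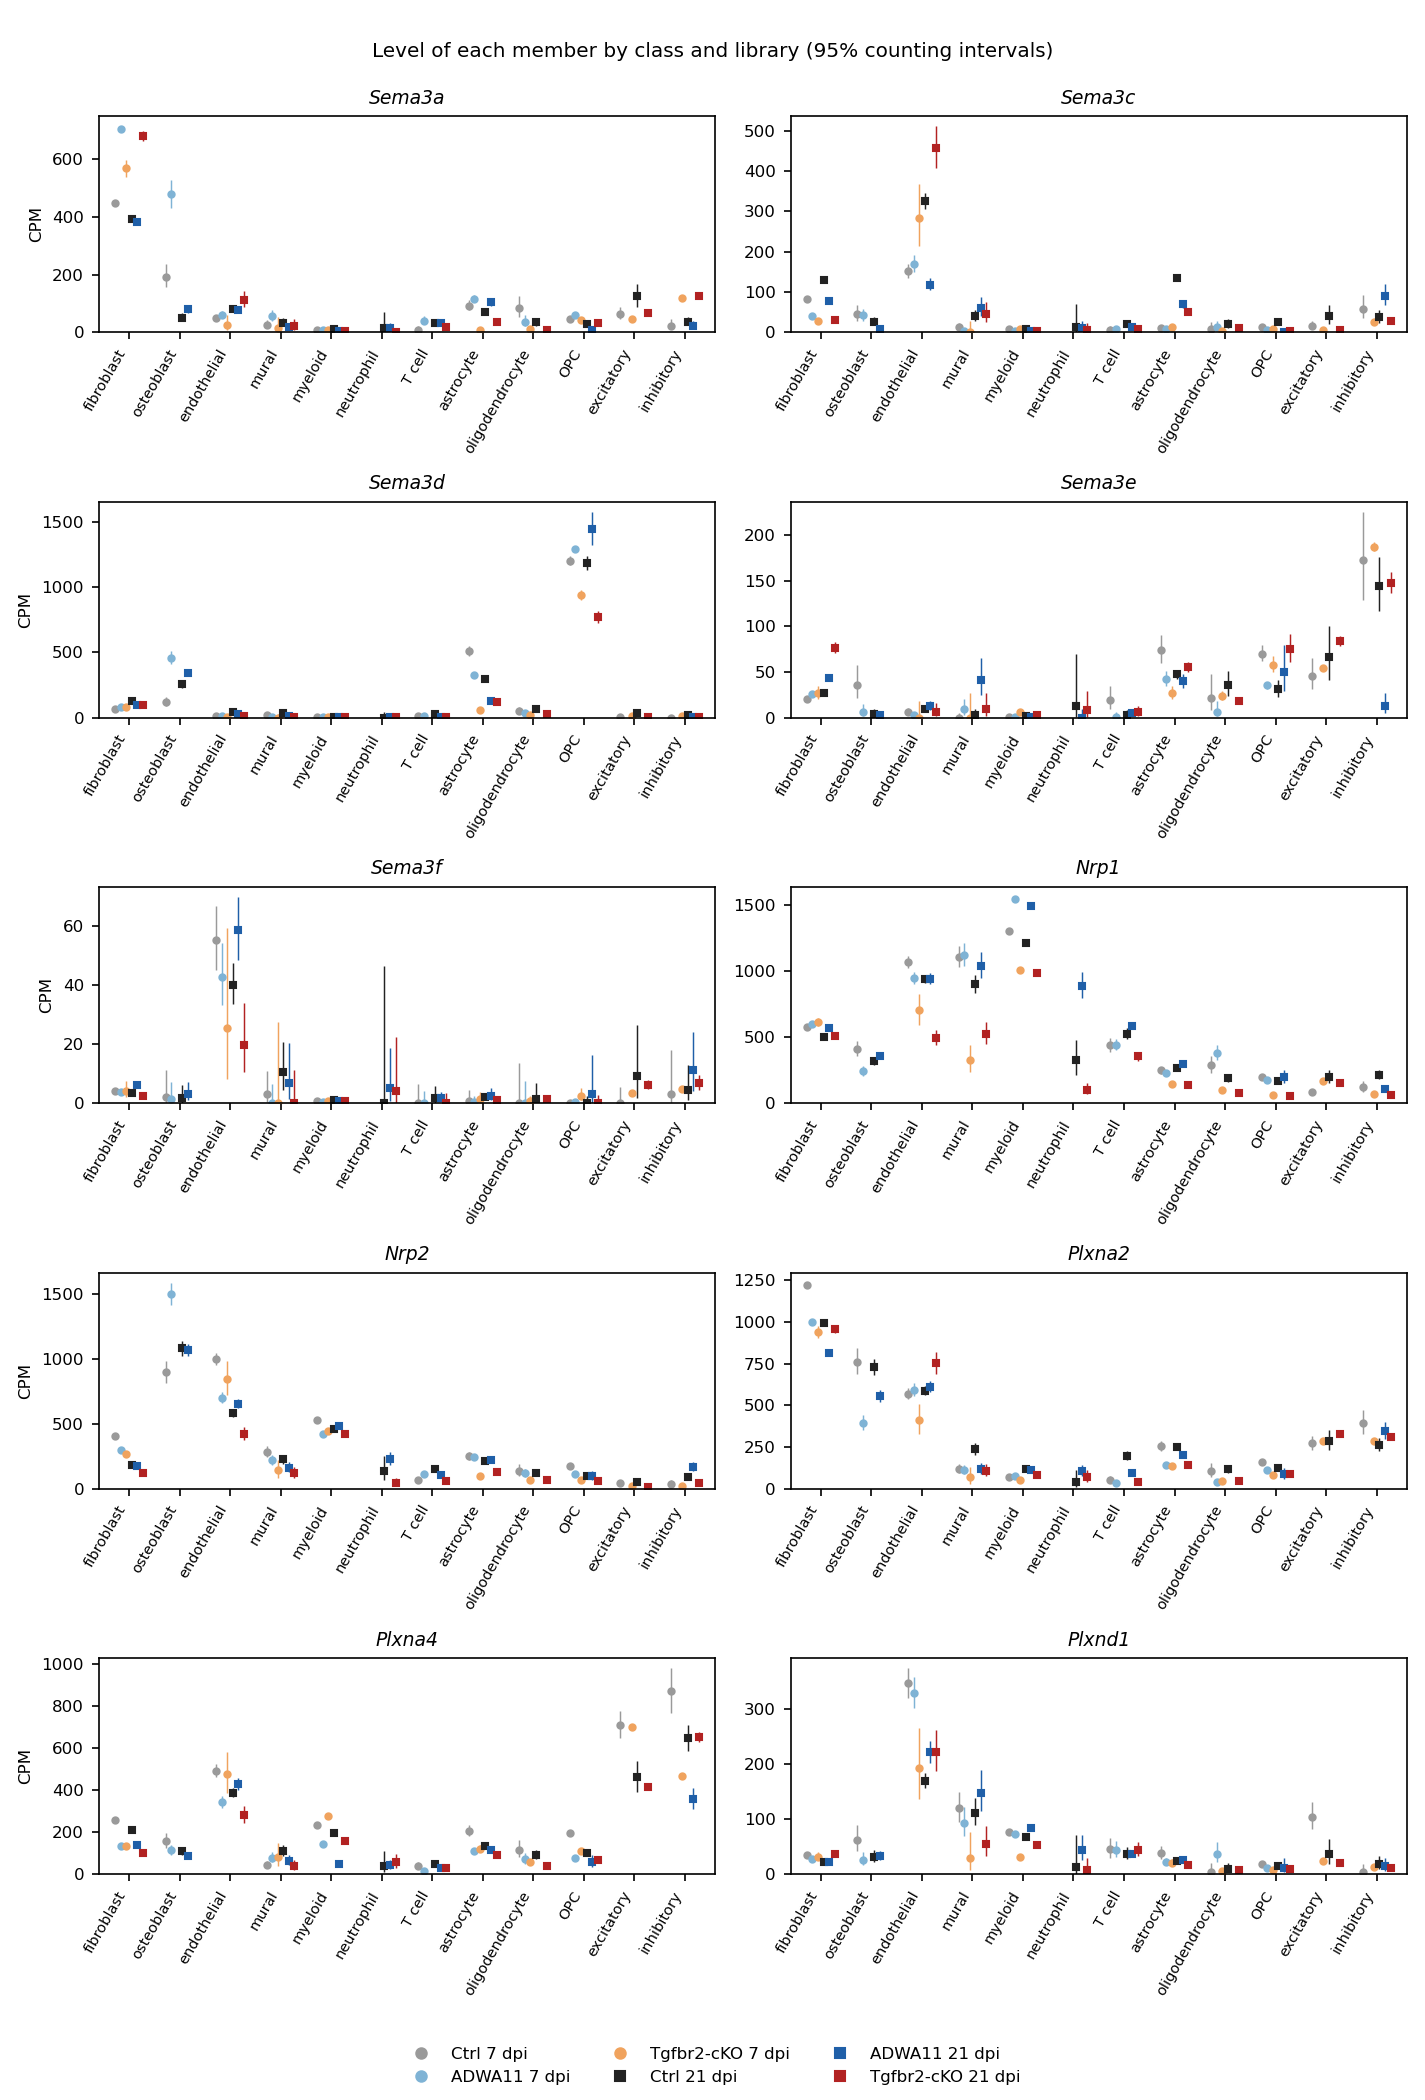
Level of each of the 10 genes (CPM, vertical axis) in 12 classes of nuclei (horizontal axis); each point is 1 of the 6 libraries and its bar the 95% counting interval, for classes with at least 30 nuclei. Sema3a and Plxna2 were highest in fibroblasts, Sema3c, Sema3f and Plxnd1 in endothelial nuclei, Sema3d in oligodendrocyte precursors and Nrp1 in myeloid nuclei in 6 of 6 libraries.

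Sema3a, the axon repellent, was a fibroblast gene in these lesions. Fibroblasts held 447 CPM (438 to 457) in the Ctrl, 705 (696 to 715) in the ADWA11-treated and 569 (539 to 599) in the Tgfbr2-cKO library at 7 dpi. At 21 dpi the levels were 392 CPM (386 to 398) in the Ctrl, 383 (376 to 391) in the ADWA11-treated and 683 (666 to 700.1) in the Tgfbr2-cKO library. The fibroblast level was the highest of the classes measured in 6 of 6 libraries, and its interval lay above that of the osteoblast-like nuclei, the next class in the order of medians, in the 4 libraries that held both. Myeloid nuclei were lowest by the median, at 4.19 to 9.80 CPM, although astrocytes at 7 dpi and neutrophils at 21 dpi lay below them in the Tgfbr2-cKO libraries, at 5.70 (3.04 to 9.75) and 0 (0 to 14.9) CPM, with overlapping intervals. With every nucleus thinned to 2000 UMIs, 38.4% to 54.7% of fibroblast nuclei but 0.887% to 1.48% of myeloid nuclei held a Sema3a UMI. Fibroblasts supplied 92.2%, 91.8%, 92.5% and 91.4% of all Sema3a UMIs in the Ctrl and ADWA11-treated libraries at 7 and then 21 dpi. In the Tgfbr2-cKO libraries the share was 16.8% at 7 dpi, where inhibitory neurons supplied 43.1% and excitatory neurons 37.2%, and 76.9% at 21 dpi. Those shares move with the number of neurons in the library and not with the level in fibroblasts alone.

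Among fibroblast sub-clusters, Sema3a was highest in the arachnoid transporter-like nuclei in every library, at 954 CPM in the Ctrl, 1246 in the ADWA11-treated and 1333 in the Tgfbr2-cKO library at 7 dpi and 706 CPM in the Ctrl, 875 in the ADWA11-treated and 1049 in the Tgfbr2-cKO library at 21 dpi. The other named states were lower, with 468 to 650.2 CPM in myofibroblast-like nuclei, which carry the contractile and matrix genes of an early scar, and 314 to 594 CPM in leptomeningeal-like nuclei. The lowest fibroblast level, 71.7 to 276 CPM, was in an unnamed sub-cluster (sub-cluster 4) in which the osteoblast genes Sp7 and Runx2 were raised and 1391 of 1783 nuclei came from the Ctrl library at 21 dpi. Sema3a was higher in fibroblasts of both treated libraries than in Ctrl at 7 dpi, by a log2 ratio of 0.66 (0.62 to 0.69) in the ADWA11-treated and 0.35 (0.26 to 0.43) in the Tgfbr2-cKO library. At 21 dpi the Tgfbr2-cKO library was higher by 0.80 (0.76 to 0.84), with 0.63 in female and 1.11 in male nuclei, whereas the ADWA11-treated library stood at -0.03 (-0.07 to 0.00). The arachnoid transporter-like sub-cluster held 398 of the 1083 fibroblast nuclei of the Tgfbr2-cKO library at 21 dpi and 638 of 6439 in Ctrl, and within that sub-cluster the ratio was 0.57 (0.50 to 0.64). At 7 dpi the same sub-cluster held 523 of 2951 fibroblast nuclei in the ADWA11-treated, 36 of 421 in the Tgfbr2-cKO and 119 of 2429 in the Ctrl library. With log-normalised clustering the arachnoid transporter-like sub-cluster held 35, 18 and 27 nuclei at 7 dpi in that order. At 21 dpi it then held 325 in the Tgfbr2-cKO and 651 in the Ctrl library. The excess of the ADWA11-treated library at 7 dpi thus depends on the clustering. The part of this makeup in the Sema3a ratios was not tested. Over both sexes none of these ratios was past 2-fold, whereas the ratio of male nuclei at 21 dpi was.

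Neurons were a separate source of Sema3a where the library held them. The inhibitory class stood at 22.8 (9.15 to 46.9), 118 (114 to 122), 36.7 (23.8 to 54.2), 22.1 (11.4 to 38.7) and 127 (117 to 138) CPM in the Ctrl and Tgfbr2-cKO libraries at 7 dpi and the Ctrl, ADWA11-treated and Tgfbr2-cKO libraries at 21 dpi. The cluster with Drd1, Drd2 and Rgs9, genes of striatal projection neurons, was highest, at 179.8 (173 to 187) and 421 (379.8 to 465) CPM at 7 and 21 dpi, and it was measured only in the Tgfbr2-cKO libraries. The higher inhibitory Sema3a of those libraries, by log2 ratios of 2.37 (1.33 to 3.69) and 1.79 (1.21 to 2.43), stands beside a class made of different clusters, and the part of that makeup was not tested.

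Sema3c, which guides vessels and outflow tract cells through neuropilins and Plxnd1, was highest in endothelial nuclei in 6 of 6 libraries, and the endothelial interval lay above that of fibroblasts in each of them. Endothelial nuclei held 151 CPM (134 to 169) in the Ctrl, 169.6 (149.9 to 191) in the ADWA11-treated and 284 (215 to 369) in the Tgfbr2-cKO library at 7 dpi. The values at 21 dpi were 325 CPM (306 to 346) in the Ctrl, 118 (104 to 134) in the ADWA11-treated and 457 (407 to 512) in the Tgfbr2-cKO library. Fibroblasts came next by the median, at 82.4 CPM (78.5 to 86.6) in the Ctrl, 41.1 (38.8 to 43.5) in the ADWA11-treated and 28.3 (22.0 to 35.8) in the Tgfbr2-cKO library at 7 dpi. By 21 dpi they stood at 129 CPM (126 to 133) in the Ctrl, 77.5 (74.2 to 80.9) in the ADWA11-treated and 30.1 (26.6 to 34.0) in the Tgfbr2-cKO library. Fibroblasts supplied 73.3%, 68.7%, 66.8% and 74.8% of Sema3c UMIs in the Ctrl and ADWA11-treated libraries at 7 and 21 dpi, against 13.1%, 15.5%, 14.6% and 9.11% from endothelial nuclei. In the Tgfbr2-cKO library at 7 dpi they supplied 4.89%, beside 54.6% from inhibitory and 28.1% from excitatory neurons. In that of 21 dpi they supplied 21.3%, below astrocytes at 30.4% and endothelial nuclei at 24.1%. Thinned to 2000 UMIs, 13.9% to 42% of endothelial nuclei held a Sema3c UMI, beside 0.524% to 1.70% of myeloid nuclei.

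In fibroblasts Sema3c was lower than Ctrl in all 4 comparisons with treatment. The log2 ratio was -1.54 (-1.91 to -1.20) in the Tgfbr2-cKO and -1.01 (-1.11 to -0.90) in the ADWA11-treated library at 7 dpi, and -2.10 (-2.28 to -1.92) and -0.74 (-0.81 to -0.66) at 21 dpi in the same order. Nuclei of both sexes were lower, with -1.5 in female and -1.90 in male nuclei for Tgfbr2-cKO at 7 dpi, -0.58 in female and -1.49 in male nuclei for ADWA11 at 7 dpi and -3.15 in female and -1.85 in male nuclei for Tgfbr2-cKO at 21 dpi. In the Tgfbr2-cKO library at 21 dpi 13.9% of the fibroblast Sema3c UMIs came from 1 nucleus. Within sub-clusters the direction was kept beyond counting error in 2 of 4 at 7 dpi and 3 of 4 at 21 dpi for Tgfbr2-cKO, and in 5 of 7 and 2 of 5 for ADWA11. The exceptions beyond counting error were the leptomeningeal-like nuclei of the Tgfbr2-cKO library at 21 dpi, at 2.05 (1.31 to 2.83), and 3 of the 5 sub-clusters of the ADWA11-treated library at 21 dpi. Over the 4 of 8 sub-clusters with at least 30 nuclei in both libraries, given equal weight, the Tgfbr2-cKO ratios were -1.03 at 7 dpi and -0.43 at 21 dpi, which changes both the weights and the set of sub-clusters, and the part of class makeup in the difference was not tested. Sub-cluster 4 held the highest Ctrl level at 21 dpi, 280.4 (270.2 to 291) CPM, and had 2 nuclei in the Tgfbr2-cKO library at that time, so it was among those left out. Between the Ctrl libraries Sema3c was higher at 21 than at 7 dpi in fibroblasts, by 0.65 (0.57 to 0.73).

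Endothelial Sema3c moved otherwise. It was higher in the Tgfbr2-cKO libraries, by 0.91 (0.47 to 1.33) at 7 dpi, where 38 endothelial nuclei were measured and 23.2% of their Sema3c UMIs came from 1 nucleus, and by 0.49 (0.30 to 0.68) at 21 dpi. In the ADWA11-treated library it stood at 0.17 (-0.08 to 0.41) at 7 dpi and at -1.46 (-1.67 to -1.26) at 21 dpi, with -1.09 in female and -1.55 in male nuclei. Summed endothelial markers in the endothelial class were at 5485, 5303 and 8000 CPM at 7 dpi and 5339, 5376 and 8319 CPM at 21 dpi in the Ctrl, ADWA11-treated and Tgfbr2-cKO libraries. Summed excitatory neuron markers were at 30.5, 43.3 and 188 CPM and then 34.0, 47.2 and 118 CPM. The part of either in endothelial Sema3c was not tested. In the class named astrocytes the Ctrl level of Sema3c was 10.3 (5.51 to 17.7) CPM at 7 dpi and 135 (127 to 144) CPM at 21 dpi. The log2 ratio was 3.71 (2.93 to 4.62), with 3.22 in female and 5.02 in male nuclei. The ADWA11-treated and Tgfbr2-cKO libraries were also higher at 21 than at 7 dpi, from 7.27 to 69.8 CPM and from 13.6 to 50.8 CPM. At 21 dpi astrocytes supplied 14.5%, 7.15% and 30.4% of Sema3c UMIs in the Ctrl, ADWA11-treated and Tgfbr2-cKO libraries. The summed fibroblast markers in astrocytes were at 849, 541 and 89.5 CPM at 7 dpi and 1360, 1030 and 110 CPM at 21 dpi. The summed endothelial markers were at 19.1, 17.8 and 12.7 CPM at 7 dpi and 133, 126 and 81.4 CPM at 21 dpi, higher at 21 dpi in all 3 conditions as Sema3c was. Summed oligodendrocyte precursor markers in this class were at 6170, 4990 and 979 CPM at 7 dpi and 2140, 1890 and 839 CPM at 21 dpi. Its summed astrocyte markers were at 2060, 1995 and 7578 CPM and then 3072, 2757 and 6712 CPM. With log-normalised clustering the astrocyte cluster held 12 Ctrl nuclei at 7 dpi, so the time ratio was not formed there. The part of any of these in the astrocyte Sema3c levels was not tested.

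Sema3d, a cue for endothelial and cardiac precursor cells that binds Nrp1, was highest in oligodendrocyte precursors. These nuclei held 1205 CPM (1169 to 1241) in the Ctrl, 1293 (1272 to 1315) in the ADWA11-treated and 941 (906 to 978) in the Tgfbr2-cKO library at 7 dpi. At 21 dpi they were at 1184 CPM (1129 to 1240) in the Ctrl, 1446 (1321 to 1579) in the ADWA11-treated and 769 (722 to 818) in the Tgfbr2-cKO library. Thinned to 2000 UMIs, 64.8% to 86.5% of precursors held a Sema3d UMI, against 0.193% to 1.52% of myeloid nuclei, and no other class came within 2-fold of them by the median. Mature oligodendrocytes stood at 23.0 to 62.4 CPM. Precursors supplied 66.0%, 78.6% and 66.6% of Sema3d UMIs in the Ctrl, ADWA11-treated and Tgfbr2-cKO libraries at 7 dpi but 18.7%, 11.6% and 33.3% at 21 dpi. Fibroblasts then supplied 50%, 60.1% and 27.6% and astrocytes 24.3%, 8.57% and 30.4%. The level in precursors differed from Ctrl by less than 2-fold in every comparison, with log2 ratios for Tgfbr2-cKO of -0.36 (-0.43 to -0.29) early and -0.62 (-0.74 to -0.51) late, and for ADWA11 of 0.10 (0.05 to 0.15) and 0.29 (0.14 to 0.43).

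Fibroblast Sema3d was at 66.9 CPM (63.3 to 70.6) in the Ctrl, 77.8 (74.6 to 81.1) in the ADWA11-treated and 84.4 (73.3 to 96.7) in the Tgfbr2-cKO library at 7 dpi. Levels at 21 dpi were 127 CPM (124 to 131) in the Ctrl, 96.9 (93.2 to 101) in the ADWA11-treated and 94.1 (87.8 to 101) in the Tgfbr2-cKO library, with the arachnoid transporter-like nuclei highest among the named states at 157 to 427 CPM. It was higher in the Ctrl library at 21 than at 7 dpi, by 0.93 (0.84 to 1.02). Against Ctrl it stood at 0.34 (0.12 to 0.55) in Tgfbr2-cKO at 7 dpi and on the other side at 21 dpi, at -0.44 (-0.55 to -0.33) in the Tgfbr2-cKO and -0.39 (-0.46 to -0.33) in the ADWA11-treated library, the latter with 0.04 in female and -0.75 in male nuclei. Astrocytes held 509 CPM in the Ctrl, 323 in the ADWA11-treated and 58.8 in the Tgfbr2-cKO library at 7 dpi and 299.7 CPM in the Ctrl, 130.3 in the ADWA11-treated and 122 in the Tgfbr2-cKO library at 21 dpi. Their summed oligodendrocyte precursor markers followed the same order at 7 dpi, at 6170, 4990 and 979 CPM, and were at 2140, 1890 and 839 CPM at 21 dpi, and the part of precursor RNA in astrocyte Sema3d was not tested.

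Sema3e, the ligand of Plxnd1, was highest in inhibitory neurons, and in the fibroblast class it was the ligand with the largest positive ratio in the late Tgfbr2-cKO scar. Inhibitory neurons held 172 (129 to 225) and 187 (182 to 192) CPM in the Ctrl and Tgfbr2-cKO libraries at 7 dpi. At 21 dpi the levels were 144 CPM (117 to 175) in the Ctrl, 12.9 (5.19 to 26.6) in the ADWA11-treated and 148 (137 to 159) in the Tgfbr2-cKO library. Inhibitory neurons were the highest class in 4 of the 5 libraries with at least 30 such nuclei, and in the ADWA11-treated library at 21 dpi the cluster with Igfbpl1 and Dlx6os1 was the only inhibitory cluster of that size. Fibroblasts, though lower, supplied 44.4%, 58.2%, 61.1% and 81.4% of Sema3e UMIs in the Ctrl and ADWA11-treated libraries at 7 and 21 dpi. In the Tgfbr2-cKO libraries they supplied 0.671% at 7 dpi and 23.0% at 21 dpi, where excitatory neurons supplied 38.1% and 32.3% and inhibitory neurons 57.6% and 22.6%. Fibroblasts held 20.5 CPM (18.6 to 22.6) in the Ctrl, 25.6 (23.8 to 27.5) in the ADWA11-treated and 27.0 (20.9 to 34.4) in the Tgfbr2-cKO library at 7 dpi. The values at 21 dpi were 26.4 CPM (24.8 to 28.1) in the Ctrl, 43.0 (40.6 to 45.6) in the ADWA11-treated and 76.5 (70.8 to 82.4) in the Tgfbr2-cKO library. The Tgfbr2-cKO value at 21 dpi lay above the other 5, whose highest was the ADWA11-treated library of the same time. The log2 ratio was 1.53 (1.39 to 1.67) in the Tgfbr2-cKO library, with 1.74 in female and 1.38 in male nuclei, and 0.70 (0.58 to 0.83) in the ADWA11-treated library. At 7 dpi it was 0.40 (0.00 to 0.78) and 0.32 (0.14 to 0.50).

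The highest Sema3e of that library was in an unnamed sub-cluster (sub-cluster 6) led by Gabrg3, Ebf3 and Lingo2, with Kcnip4, Kcnc2 and Fgf10 also among its 10 leading genes. Gabrg3, Lingo2, Kcnip4 and Kcnc2 are known from neurons, and the part of neuronal RNA in this sub-cluster was not tested. The chemokine Cxcl12 was also raised in it. It held 320 of 1083 fibroblast nuclei in that library and at most 10 in any other, and its Sema3e level was 148 (136 to 162) CPM. Without it no sub-cluster of the Tgfbr2-cKO library at 21 dpi was as high, and with equal weights over the 4 sub-clusters that could be compared the ratio was 0.40. The sub-cluster led by Slc47a2 and Prok2 (sub-cluster 0) came next, at 42.2 to 86.0 CPM over the libraries, whereas myofibroblast-like nuclei stood at 4.88 to 25.3 CPM. With 2000 UMIs per nucleus 3.53% to 10.3% of fibroblasts held a Sema3e UMI, with 20.9% in sub-cluster 6 of the Tgfbr2-cKO library at 21 dpi.

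Sema3f, which acts through Nrp2 on axons and lymphatic vessels, was highest in endothelial nuclei, at a low level. Endothelial nuclei held 55.2 CPM (45.1 to 66.8) in the Ctrl, 42.7 (33.2 to 54.1) in the ADWA11-treated and 25.4 (8.24 to 59.2) in the Tgfbr2-cKO library at 7 dpi. By 21 dpi they stood at 40.1 CPM (33.5 to 47.6) in the Ctrl, 58.5 (48.7 to 69.8) in the ADWA11-treated and 19.7 (10.5 to 33.8) in the Tgfbr2-cKO library. Both Tgfbr2-cKO libraries were lowest, and the log2 ratio to Ctrl was -1.12 (-2.77 to 0.15) at 7 dpi and -1.02 (-1.97 to -0.20) at 21 dpi, with -0.52 in female and -1.32 in male nuclei at 21 dpi. Endothelial nuclei supplied 51.2%, 34.2%, 1.20%, 41.6%, 35.8% and 8.12% of Sema3f UMIs in the Ctrl, ADWA11-treated and Tgfbr2-cKO libraries at 7 and then 21 dpi, and fibroblasts 37.6%, 54.3%, 2.39%, 42.5%, 45.7% and 13.8%. Fibroblasts stood at 2.49 to 5.97 CPM, under the mean of 5 CPM required for a gene to be counted in a comparison.

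**Figure D2:**
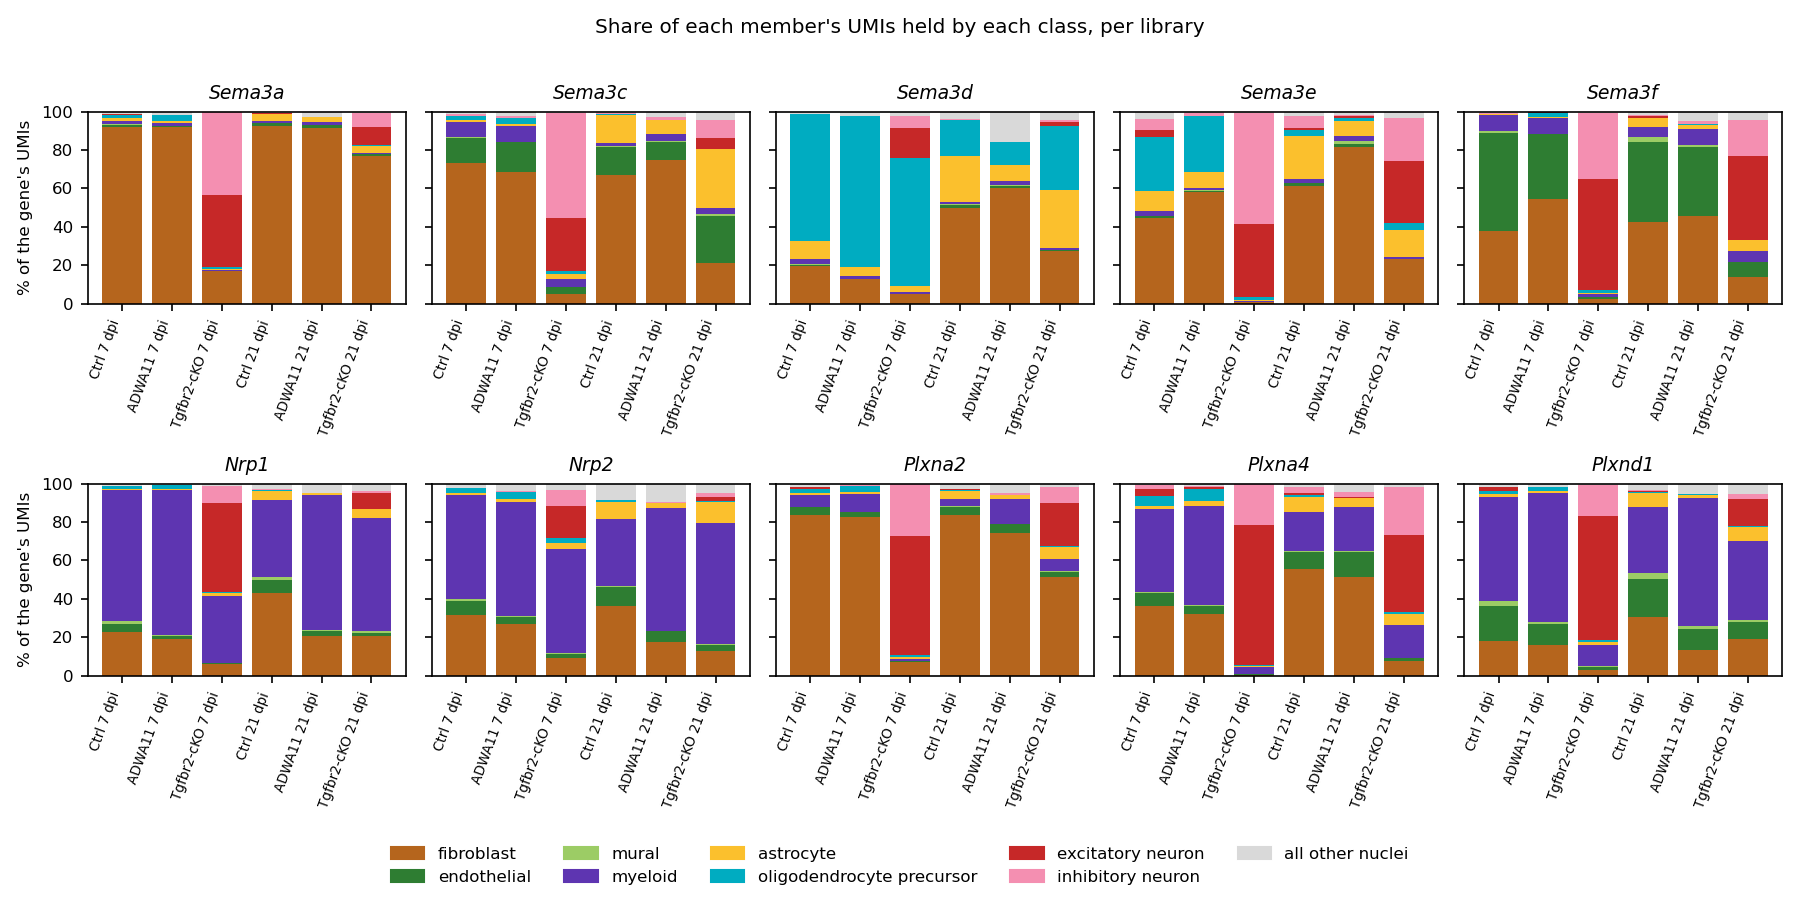
Share of each gene's UMIs (percent, vertical axis) supplied by each class of nuclei in each of the 6 libraries (horizontal axis), with all other nuclei in grey. Fibroblasts supplied 92.2% of Sema3a UMIs in the Ctrl library at 7 dpi and 16.8% in the neuron-rich Tgfbr2-cKO library of that time, so the bars show who was in the library as well as who used the gene.

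Nrp1, the co-receptor for Sema3a and for VEGF-A, was highest in myeloid nuclei, which take in the microglia and the macrophages of the lesion. They held 1302 CPM (1288 to 1316) in the Ctrl, 1545 (1534 to 1557) in the ADWA11-treated and 1008 (987 to 1029) in the Tgfbr2-cKO library at 7 dpi. At 21 dpi they were at 1209 CPM (1191 to 1227) in the Ctrl, 1486 (1473 to 1499) in the ADWA11-treated and 987 (969.5 to 1004) in the Tgfbr2-cKO library. The ADWA11-treated library was highest and the Tgfbr2-cKO library lowest at both times. Mural and endothelial nuclei followed, and the myeloid interval lay above the mural one in 6 of 6 libraries, whereas mural and endothelial intervals overlapped in 4 of 6 libraries and lay apart at 7 dpi in the ADWA11-treated library, mural higher, and the Tgfbr2-cKO library, mural lower. Endothelial nuclei held 1067 CPM (1021 to 1114) in the Ctrl, 943 (896 to 992) in the ADWA11-treated and 700.1 (588 to 827) in the Tgfbr2-cKO library at 7 dpi. Levels at 21 dpi were 937 CPM (904 to 971) in the Ctrl, 941 (899.9 to 983) in the ADWA11-treated and 494 (441 to 550.2) in the Tgfbr2-cKO library. Fibroblasts lay lower and closer together, at 500 to 611 CPM.

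Within the myeloid class, border-type macrophage-like nuclei, which carry the genes of macrophages of the meninges and vessel walls, were the highest of the named states with 2096 CPM in the Ctrl, 1673 in the ADWA11-treated and 1467 in the Tgfbr2-cKO library at 7 dpi and 2055 CPM in the Ctrl, 2177 in the ADWA11-treated and 1205 in the Tgfbr2-cKO library at 21 dpi. Microglia-like nuclei (sub-cluster 1) held 725 to 1261 CPM and the larger group of dendritic-like nuclei 167 to 626 CPM. Myeloid Nrp1 was lower in Tgfbr2-cKO than in Ctrl, at a log2 ratio of -0.37 (-0.40 to -0.34) at 7 dpi and -0.29 (-0.33 to -0.26) at 21 dpi, in 6 of 6 sub-clusters at each time, 5 and 4 of them beyond counting error. The sexes stood apart at 21 dpi, with -0.60 in female and 0.06 in male nuclei. In ADWA11-treated lesions it was higher by 0.25 (0.23 to 0.27) and 0.30 (0.27 to 0.32), but in 4 of 7 and 4 of 8 sub-clusters only.

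Vascular Nrp1 was also lower in the Tgfbr2-cKO libraries. Mural nuclei, the pericytes and smooth muscle of the vessel wall, held 1107 CPM (1029 to 1190) in the Ctrl, 1119 (1033 to 1210) in the ADWA11-treated and 328 (238 to 439.8) in the Tgfbr2-cKO library at 7 dpi. At 21 dpi the levels were 899 CPM (833 to 969) in the Ctrl, 1038 (944 to 1139) in the ADWA11-treated and 525 (449 to 609) in the Tgfbr2-cKO library. The ratio to Ctrl was -1.76 (-2.23 to -1.32) at 7 dpi, over all 41 Tgfbr2-cKO and 89 Ctrl mural nuclei. By sex it was -1.92 in female and -2.55 in male nuclei. At 21 dpi it was -0.78 (-1.03 to -0.53), and in endothelial nuclei -0.93 (-1.09 to -0.76), where the sexes stood apart at -1.80 in female and -0.24 in male nuclei. Summed fibroblast markers moved in the same way in mural nuclei, at 2300, 2110 and 469 CPM at 7 dpi and 3030, 2940 and 638 CPM at 21 dpi. In endothelial nuclei they were at 1450, 1020, 254, 2880, 2110 and 255 CPM in the same order, and their part in the vascular levels was not tested.

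Nrp2, the co-receptor for Sema3f and VEGF-C, was shared between endothelial, myeloid and osteoblast-like nuclei. Endothelial nuclei held 1000 CPM (956 to 1046) in the Ctrl, 698 (658 to 741) in the ADWA11-treated and 842 (719 to 980.4) in the Tgfbr2-cKO library at 7 dpi. The values at 21 dpi were 579 CPM (553 to 605) in the Ctrl, 652 (618 to 687) in the ADWA11-treated and 421 (373 to 473) in the Tgfbr2-cKO library. Osteoblast-like nuclei, which carry bone-forming genes and were measured in the Ctrl and ADWA11-treated libraries, held 899 (817 to 986) and 1497 (1412 to 1586) CPM at 7 dpi and 1080 (1021 to 1140) and 1065 (1018 to 1113) CPM at 21 dpi. Osteoblast-like and endothelial nuclei were each the highest class in 3 of 6 libraries. Myeloid levels lay close together at 419 to 527 CPM.

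Fibroblast Nrp2 was at 403 CPM (394 to 412) in the Ctrl, 297 (291 to 303) in the ADWA11-treated and 270.4 (250.1 to 292) in the Tgfbr2-cKO library at 7 dpi. By 21 dpi they stood at 183 CPM (178 to 187) in the Ctrl, 172 (167 to 177) in the ADWA11-treated and 123 (116 to 131) in the Tgfbr2-cKO library, so every library at 21 dpi was below every library at 7 dpi. Between the Ctrl libraries the log2 ratio was -1.14 (-1.19 to -1.10), with -1.29 in female and -1.09 in male nuclei, and it was negative in 6 of 6 sub-clusters, 4 of them beyond counting error. The widest difference was in sub-cluster 4, from 735 (692 to 779) to 147 (139 to 155) CPM. Against Ctrl, fibroblast Nrp2 was also lower, at -0.58 (-0.69 to -0.46) and -0.44 (-0.49 to -0.40) in Tgfbr2-cKO and ADWA11-treated lesions at 7 dpi and -0.56 (-0.66 to -0.47) and -0.09 (-0.14 to -0.03) at 21 dpi. The sexes differed in direction for ADWA11 at 21 dpi, with 0.42 in female and -0.55 in male nuclei.

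Plxna2, an A-type plexin that signals for Sema3a bound to neuropilin, was like Sema3a highest in fibroblasts. Fibroblasts held 1220 CPM (1205 to 1236) in the Ctrl, 999 (988 to 1011) in the ADWA11-treated and 939.8 (902 to 979) in the Tgfbr2-cKO library at 7 dpi. At 21 dpi they were at 993 CPM (983 to 1003) in the Ctrl, 814 (803 to 825) in the ADWA11-treated and 957 (936 to 977) in the Tgfbr2-cKO library. The class was the highest in 6 of 6 libraries. Among them arachnoid transporter-like nuclei held 1173 to 1773 CPM and were highest in 5 of 6 libraries, with leptomeningeal-like nuclei above them in Tgfbr2-cKO at 7 dpi. Endothelial nuclei held 411 to 752 CPM and myeloid nuclei 52.5 to 116 CPM. The ratios to Ctrl in fibroblasts were within 2-fold, at -0.38 (-0.44 to -0.32) and -0.29 (-0.31 to -0.26) at 7 dpi for Tgfbr2-cKO and ADWA11, and -0.05 (-0.09 to -0.02) and -0.29 (-0.31 to -0.26) at 21 dpi. For Tgfbr2-cKO at 21 dpi female and male nuclei lay on different sides, at 0.15 in female and -0.28 in male nuclei. At 7 dpi ADWA11-treated fibroblasts were lower in 7 of 7 sub-clusters, each beyond counting error.

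Plxna4, the A-type plexin that carries Sema3a repulsion in sensory and sympathetic axons, was highest in neurons in 4 of the 5 libraries with enough of them. Excitatory neurons held 713 (651 to 779.7) and 701 (695 to 707) CPM in the Ctrl and Tgfbr2-cKO libraries at 7 dpi and 462 (391 to 541) and 417 (405 to 429) CPM at 21 dpi. Inhibitory neurons held 871 (769.9 to 982) and 466 (458 to 474) CPM at 7 dpi. Levels at 21 dpi were 648 CPM (588 to 711) in the Ctrl, 358 (309 to 412) in the ADWA11-treated and 653 (629.6 to 677) in the Tgfbr2-cKO library. A cluster of inhibitory neurons with Igfbpl1 and Dlx6os1, genes of young interneurons, reached 1023 (939 to 1111) and 1116 (1053 to 1182) CPM in the Tgfbr2-cKO libraries at 7 and 21 dpi, and excitatory neurons with Cux2 and Rorb reached 1213 (1199 to 1228) CPM at 7 dpi. Endothelial nuclei stood at 282 to 493 CPM and were the highest class in the ADWA11-treated libraries.

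Fibroblast Plxna4 was lower than Ctrl in all 4 comparisons. Levels were 258 CPM (251 to 265) in the Ctrl, 135 (131 to 139) in the ADWA11-treated and 134 (120.2 to 149.7) in the Tgfbr2-cKO library at 7 dpi. At 21 dpi the levels were 208 CPM (203 to 213) in the Ctrl, 137 (132 to 141) in the ADWA11-treated and 98.3 (91.9 to 105) in the Tgfbr2-cKO library, so both Ctrl libraries lay above the 4 treated libraries. The log2 ratio was -0.94 (-1.11 to -0.78) for Tgfbr2-cKO and -0.93 (-1.0 to -0.87) for ADWA11 at 7 dpi, and -1.08 (-1.18 to -0.98) and -0.61 (-0.66 to -0.55) at 21 dpi. For Tgfbr2-cKO at 21 dpi the sexes gave -1.27 in female and -0.82 in male nuclei. Sub-clusters were lower in 4 of 4 and 3 of 4 for Tgfbr2-cKO at 7 and 21 dpi, and in 5 of 7 and 4 of 5 for ADWA11. The exception in the late Tgfbr2-cKO library was large, at 1.77 (1.43 to 2.12) in leptomeningeal-like nuclei, and with equal weights over the 4 sub-clusters that could be compared that ratio turned to 0.0959. Leptomeningeal-like nuclei numbered 76 there and 216 in Ctrl.

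Myeloid Plxna4 was split by cell state. Microglia-like nuclei (sub-cluster 1) held 430.4 CPM (418 to 444) in the Ctrl, 316 (266 to 373) in the ADWA11-treated and 416 (352 to 489) in the Tgfbr2-cKO library at 7 dpi. The values at 21 dpi were 335 CPM (319.6 to 350.5) in the Ctrl, 157 (118 to 204) in the ADWA11-treated and 226 (215 to 237) in the Tgfbr2-cKO library, whereas border-type macrophage-like nuclei held 16.6 to 88.7 CPM. In the whole class the ADWA11-treated library stood at 47.4 (45.1 to 49.7) CPM at 21 dpi against 197 (189.9 to 204) in Ctrl, a log2 ratio of -2.06 (-2.15 to -1.97), with -1.20 in female and -2.48 in male nuclei. Microglia-like nuclei numbered 70 of 6155 there and 1062 of 3135 in Ctrl, and the part of this makeup was not tested. Within sub-clusters Plxna4 was lower in 8 of 8, 6 of them beyond counting error, and equal weights gave -0.94. At 7 dpi ADWA11-treated myeloid nuclei were lower in 7 of 7 sub-clusters, 6 beyond counting error, with -0.71 (-0.76 to -0.66) over the class. The Tgfbr2-cKO library stood at 0.26 (0.19 to 0.33) at 7 dpi and on the other side at -0.33 (-0.42 to -0.25) at 21 dpi, with -0.85 in female and 0.04 in male nuclei at 21 dpi. At 7 dpi 1580 of its 2310 myeloid nuclei fell in an unnamed sub-cluster that had microglial markers but was led by the neuronal genes Nrg3 and Syt1, the summed excitatory markers in myeloid nuclei were at 199 CPM against 37.8 in Ctrl, and their part in myeloid Plxna4 was not tested.

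Plxnd1, the receptor that keeps endothelial cells out of Sema3e territory, was highest in endothelial nuclei. They held 346 CPM (319.9 to 373) in the Ctrl, 328 (301 to 358) in the ADWA11-treated and 193 (136 to 265) in the Tgfbr2-cKO library at 7 dpi. By 21 dpi they stood at 169 CPM (156 to 184) in the Ctrl, 221 (202 to 242) in the ADWA11-treated and 222 (187 to 261) in the Tgfbr2-cKO library. The class was the highest in 6 of 6 libraries. Of all Plxnd1 UMIs it supplied 18.2%, 10.8%, 1.51%, 20%, 10.8% and 8.78% in the Ctrl, ADWA11-treated and Tgfbr2-cKO libraries at 7 and then 21 dpi, against 54.6%, 66.9%, 11.0%, 34.6%, 66.7% and 41.0% from the more numerous myeloid nuclei. The Ctrl level was lower at 21 than at 7 dpi, at a log2 ratio of -1.03 (-1.20 to -0.87), with -1.25 in female and -0.86 in male nuclei. At 21 dpi both treated libraries were above Ctrl, by 0.39 (0.21 to 0.57) for ADWA11 and 0.39 (0.12 to 0.65) for Tgfbr2-cKO. Mural nuclei held 29.8 to 148 CPM and fibroblasts 22.1 to 36.2 CPM, and in fibroblasts the ratio for Tgfbr2-cKO at 21 dpi was 0.69 (0.50 to 0.88). Summed endothelial markers in fibroblasts were at 231 CPM in that library and 110 CPM in Ctrl, and their part in this ratio was not tested.

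Myeloid nuclei held Plxnd1 at 76.7 CPM (73.3 to 80.1) in the Ctrl, 72.7 (70.2 to 75.2) in the ADWA11-treated and 31.1 (27.5 to 35.0) in the Tgfbr2-cKO library at 7 dpi. At 21 dpi they were at 66.7 CPM (62.5 to 71.0) in the Ctrl, 84.4 (81.3 to 87.5) in the ADWA11-treated and 52.9 (49.0 to 57.0) in the Tgfbr2-cKO library. The Tgfbr2-cKO library at 7 dpi was lowest, at a log2 ratio of -1.30 (-1.49 to -1.12) to Ctrl, with -1.57 in female and -1.15 in male nuclei, and lower in 6 of 6 sub-clusters, 5 of them beyond counting error. Border-type macrophage-like nuclei showed it with 146 (124 to 169.9) CPM in Ctrl and 75.7 (59.8 to 94.6) CPM in Tgfbr2-cKO. At 21 dpi the ratio was -0.33 (-0.48 to -0.19).

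**Figure D3:**
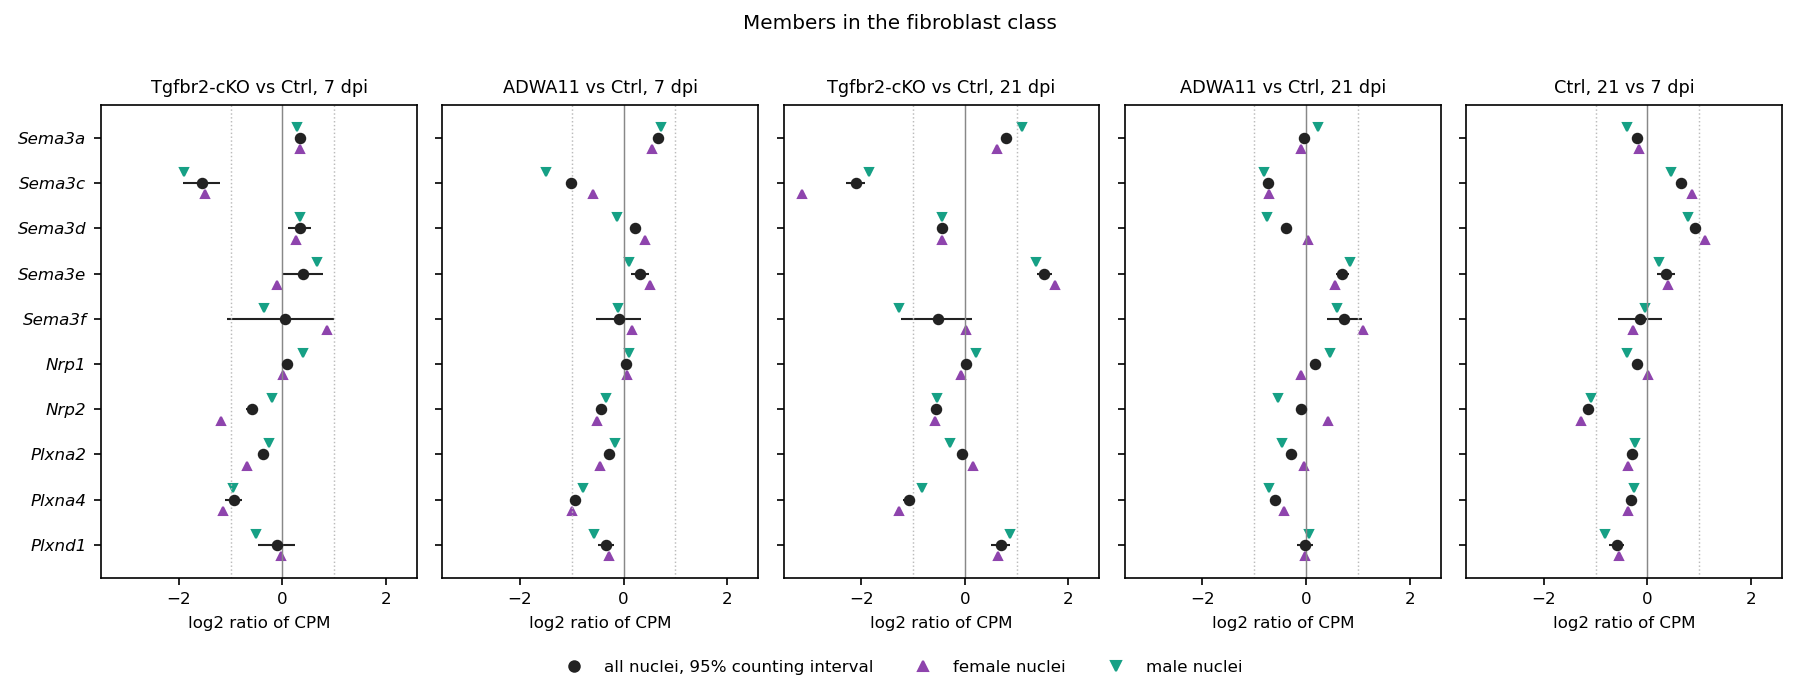
Log2 ratio of fibroblast CPM (horizontal axis) of the 10 genes in the 4 comparisons of a treated with the Ctrl library and in the comparison of Ctrl at 21 with 7 dpi; bars are 95% counting intervals, triangles the ratio in female or male nuclei, and dotted lines mark 2-fold. Sema3c and Plxna4 lay below 0 in all 4 treatment comparisons and Sema3e reached 1.53 in Tgfbr2-cKO at 21 dpi.

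Counted over the members in fibroblasts, 9 of the 10 had a mean of at least 5 CPM, and a member was counted as past 2-fold when its ratio was and its counting interval left out 0. For Tgfbr2-cKO at 7 dpi only Sema3c was past it, lower, beside 8.44% of 11913 genes in either direction. For ADWA11 at 7 dpi again only Sema3c was, beside 4.95% of genes, at a ratio on the mark (-1.0053) that missed it in 5 of 11 alternatives, at -0.58 to -0.99. For Tgfbr2-cKO at 21 dpi Sema3e was higher and Sema3c and Plxna4 were lower, 3 of 9, beside 10.4% of genes. For ADWA11 at 21 dpi no member was past 2-fold, beside 3.74% of genes. Between the Ctrl libraries only Nrp2 was, lower at 21 dpi, beside 10.7% of genes. The comparisons of 1 time point share their Ctrl library, so a low or high Ctrl value enters both of them. The members were chosen with earlier results of these data known, so the shares beside their counts are a description.

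The median log2 ratio over the 9 members was -0.10 against 0.08 over all genes for Tgfbr2-cKO at 7 dpi, and -0.29 against 0.05 for ADWA11. At 21 dpi it was -0.05 against -0.02 and -0.09 against -0.01 in the same order, and over time it was -0.20 against 0.03. Of the members whose ratio was beyond counting error, female and male nuclei had the same sign for 7 of 7, 8 of 9, 7 of 8, 4 of 7 and 8 of 9 in the 5 comparisons in the order given above. Summed fibroblast markers in the class were at 8110, 6110 and 4270 CPM at 7 dpi and 6680, 5310 and 1860 CPM at 21 dpi in the Ctrl, ADWA11-treated and Tgfbr2-cKO libraries, and summed excitatory neuron markers at 66.6, 59.7, 185, 46.6, 34.5 and 77 CPM in the same order. Both moved with the Tgfbr2-cKO libraries, and their part in the member ratios was not tested. Fewer nuclei with a gene and less RNA per nucleus cannot be told apart in these sums.

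**Figure D4:**
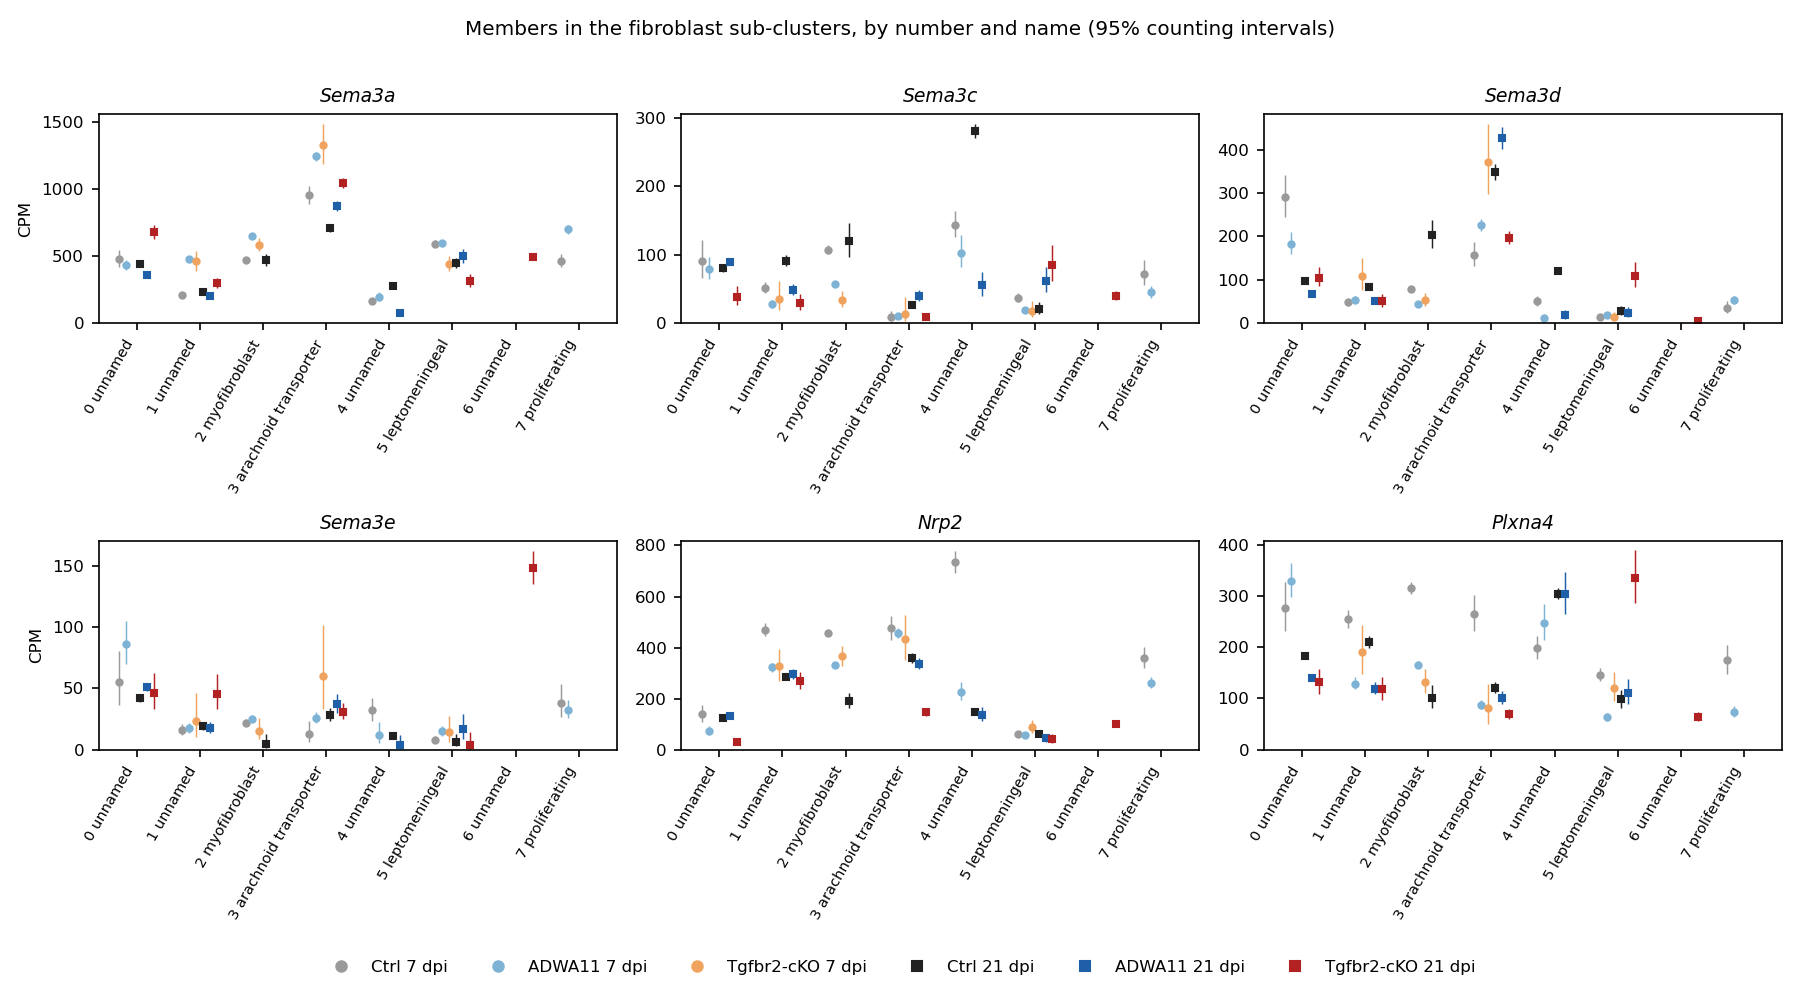
Level (CPM, vertical axis) of Sema3a, Sema3c, Sema3d, Sema3e, Nrp2 and Plxna4 in the fibroblast sub-clusters (horizontal axis), 1 point per library with its 95% counting interval. Sema3a was highest in the arachnoid transporter-like nuclei, at 706 to 1333 CPM, and Sema3e in sub-cluster 6 of the Tgfbr2-cKO library at 21 dpi, at 148 CPM.

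The fibroblast class was not made of the same states in each library. Myofibroblast-like nuclei numbered 1056, 1218 and 137 in the Ctrl, ADWA11-treated and Tgfbr2-cKO libraries at 7 dpi and 79, 10 and 4 at 21 dpi. With log-normalised clustering no sub-cluster took that name. The one with Cthrc1 and Fn1 raised stayed unnamed and held 1118, 1682 and 133 nuclei at 7 dpi. The levels by sub-cluster are those of the reported clustering. The sub-cluster led by Slc47a2 and Prok2 numbered 2016, 2290 and 94 at 21 dpi. A sub-cluster of 3799 nuclei (sub-cluster 1) had a median of 2347 UMIs, was led by the immune genes Blnk and Aoah, and held 35.7% nuclei called as doublets. Leaving it out gave Sema3c ratios of -1.71 and -2.18 for Tgfbr2-cKO at 7 and 21 dpi, Plxna4 ratios of -1.05 and -1.11, and a Sema3e ratio of 1.51 at 21 dpi. Without it Plxnd1 was also past 2-fold in Tgfbr2-cKO at 21 dpi, at 1.07 (0.85 to 1.29), so that 4 of 9 members were, beside 11.3% of all genes. Plxna4 was past it at 7 dpi, so that 2 were, beside 8.56%.

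In endothelial nuclei all 10 members were counted. None was past 2-fold for Tgfbr2-cKO at 7 dpi, beside 8.99% of 11684 genes, or for ADWA11 at 7 dpi, beside 7.36%. At 21 dpi Sema3d, at -2.13 (-3.60 to -0.97), and Sema3f were lower in Tgfbr2-cKO, beside 10.7%, and Sema3c was lower in ADWA11-treated nuclei, beside 6.27%. Between the Ctrl libraries Sema3c, at 1.11 (0.92 to 1.30), and Sema3d, at 1.44 (0.84 to 2.08), were higher at 21 dpi and Plxnd1 was lower, beside 14.7%. Endothelial Sema3d was at 5.07 to 39.8 CPM, a level that moved with the summed fibroblast markers given above.

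Mural nuclei numbered 41 to 167 per library, and 9 members were counted. Nrp1 and Plxnd1, at -2.01 (-3.92 to -0.60), were lower in Tgfbr2-cKO at 7 dpi, beside 11.1% of 11975 genes. Plxnd1 was at -2.06 in female nuclei there, and the male nuclei of the Tgfbr2-cKO library held no Plxnd1 UMI, so they gave no direction. For ADWA11 at 7 dpi Sema3a was higher, at 1.12 (0.22 to 2.06), and Sema3d lower, at -2.07 (-4.50 to -0.25), beside 6.32%. Both turned, Sema3a to -1.03 without the 5 nuclei richest in it and Sema3d to 0.27 without called doublets. At 21 dpi Sema3d, at -3.43 (-8.79 to -0.82), Plxna2, at -1.15 (-1.72 to -0.63), Plxna4, at -1.47 (-2.44 to -0.62), and Plxnd1, at -1.02 (-1.84 to -0.28), were lower in Tgfbr2-cKO, beside 10.3%. For ADWA11 at 21 dpi Sema3e was higher, at 3.99 (1.92 to 7.14), and Sema3d, at -1.51 (-3.25 to -0.09), and Plxna2, at -1.01 (-1.49 to -0.56), were lower, beside 6.51%. Mural Sema3d at 21 dpi turned to 0.12 for ADWA11 without called doublets. In Tgfbr2-cKO the 1 UMI of that time falls among the 5 richest nuclei. Without them the value of 0.23 rests on a floor of 3 counts and shows no reversal. Over time Sema3c, at 1.72 (0.56 to 3.05), and Plxna4, at 1.29 (0.68 to 1.95), were higher at 21 dpi, beside 11.6%. Summed endothelial markers in mural nuclei were at 330, 437 and 350 CPM at 7 dpi and 786, 518 and 699 CPM at 21 dpi in the Ctrl, ADWA11-treated and Tgfbr2-cKO libraries, and their part in these ratios was not tested. The ligand levels here rest on few UMIs, with Sema3a at 14.9 to 55.2 CPM and Sema3d at 15, 3, 0, 25, 5 and 1 UMIs in the Ctrl, ADWA11-treated and Tgfbr2-cKO libraries at 7 and then 21 dpi, where the interval of the count of 0 reaches 27.5 CPM.

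**Figure D5:**
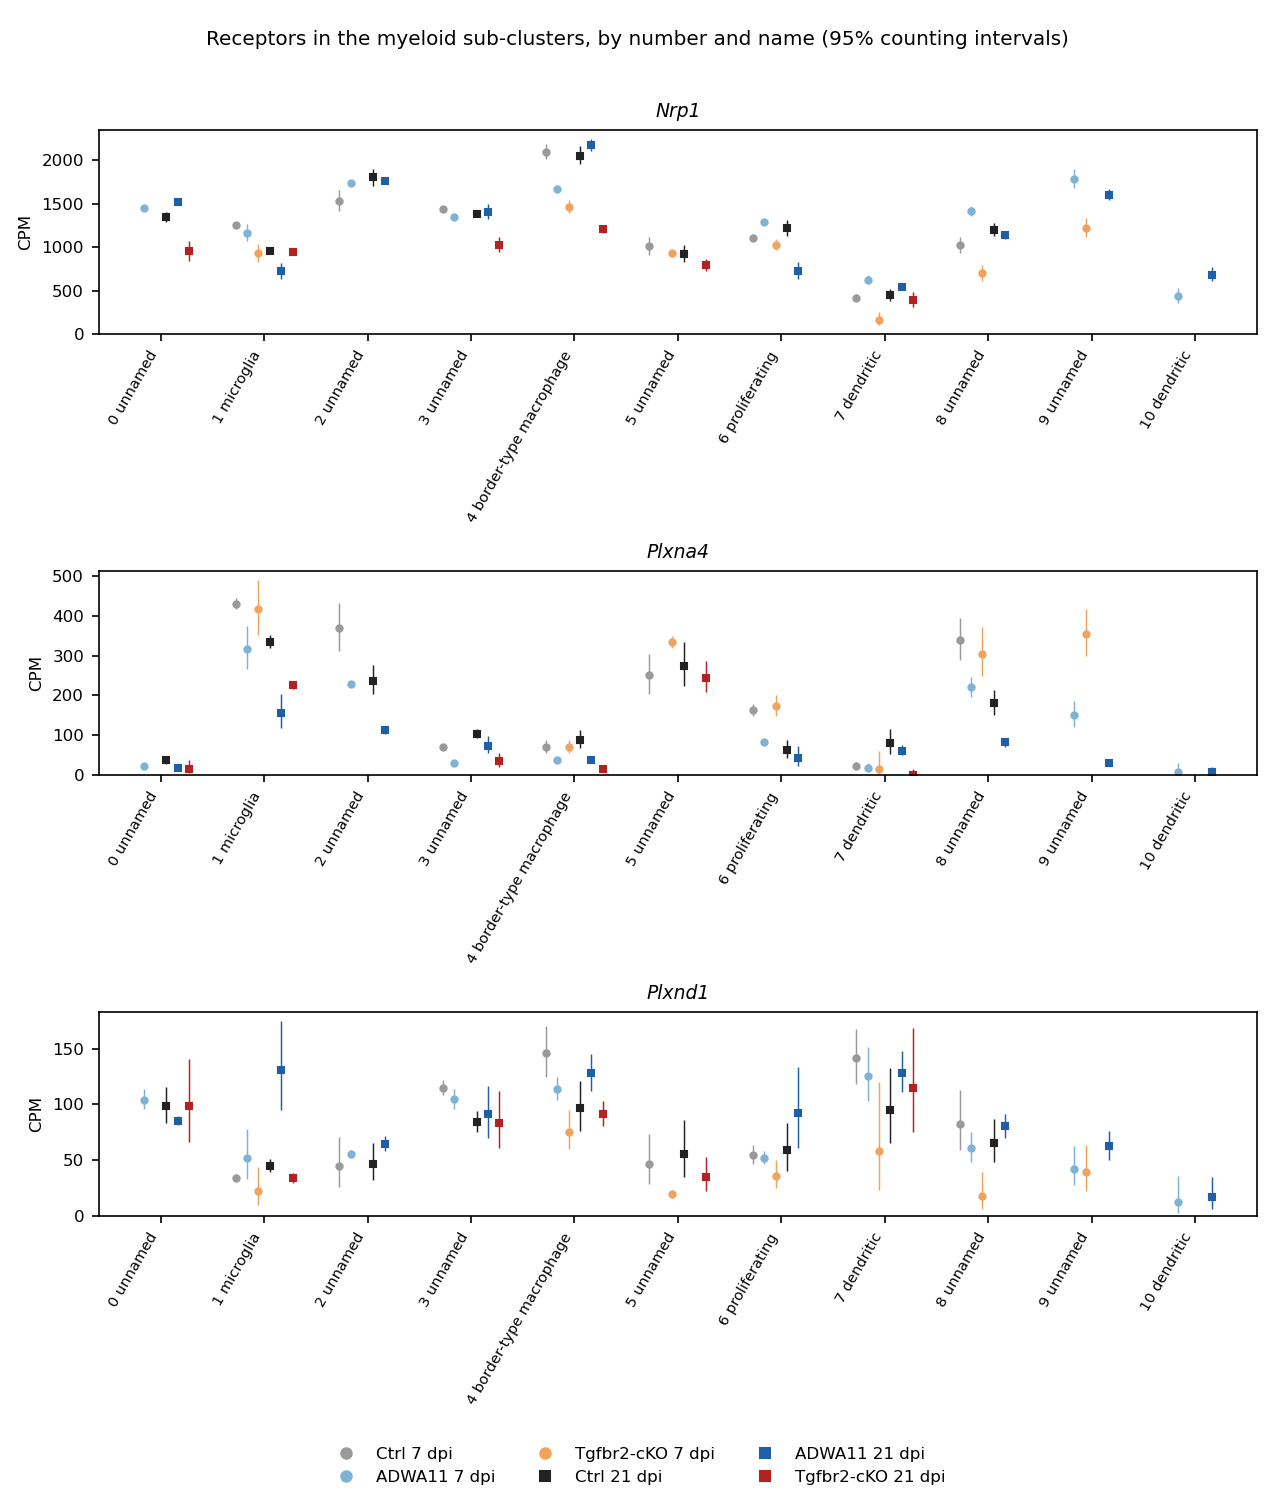
Level (CPM, vertical axis) of Nrp1, Plxna4 and Plxnd1 in the myeloid sub-clusters measured in at least 2 libraries (horizontal axis), 1 point per library with its 95% counting interval. Among named states Plxna4 was highest in microglia-like nuclei, at 157 to 430.4 CPM, and Nrp1 in border-type macrophage-like nuclei, at 1205 to 2177 CPM.

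In the myeloid class 7 members were counted. Plxnd1 was past 2-fold, lower, for Tgfbr2-cKO at 7 dpi, beside 8.5% of 11006 genes, and Sema3c, at -1.14 (-1.47 to -0.81), was lower for ADWA11, beside 6.79%. At 21 dpi Sema3a, at -1.23 (-1.71 to -0.76), and Sema3c, at -1.34 (-1.89 to -0.82), were lower in Tgfbr2-cKO, beside 5.44%, and Sema3c, at -1.51 (-1.91 to -1.11), and Plxna4 were lower for ADWA11, beside 9.88%. No member was past 2-fold over time, beside 6.95%. Myeloid Sema3a was at 4.19 to 9.80 CPM and Sema3c at 2.84 to 8.06 CPM, beside summed fibroblast markers of 599, 328 and 46.4 CPM at 7 dpi and 942, 511 and 60.4 CPM at 21 dpi in myeloid nuclei, and the part of free fibroblast RNA in these ligand values was not tested.

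In astrocytes 9 members were counted, and 4 were past 2-fold for Tgfbr2-cKO at 7 dpi. Sema3a, at -4.00 (-4.96 to -3.17), Sema3d, at -3.12 (-3.39 to -2.84), Sema3e, at -1.44 (-1.93 to -0.97), and Nrp2, at -1.32 (-1.57 to -1.07), were lower, beside 16.9% of 12282 genes. None was for ADWA11 at 7 dpi, beside 6.57%. At 21 dpi Sema3a, at -1.01 (-1.23 to -0.79), Sema3c, at -1.42 (-1.59 to -1.24), and Sema3d, at -1.29 (-1.40 to -1.18), were lower in Tgfbr2-cKO, beside 7.88%, and Sema3d, at -1.20 (-1.36 to -1.04), was lower for ADWA11, beside 3.23%. Over time Sema3c alone was past 2-fold, beside 15.6%. With log-normalised clustering the astrocyte cluster held 12 Ctrl and 18 ADWA11-treated nuclei at 7 dpi. Under that clustering astrocytes were thus not compared at 7 dpi or over time. A cluster named as oligodendrocyte precursors, with 4 astrocyte markers raised, held 229 Ctrl, 254 ADWA11-treated and 75 Tgfbr2-cKO nuclei at 7 dpi. The fibroblast and precursor markers in astrocytes, given with Sema3c and Sema3d, were also lowest in the Tgfbr2-cKO libraries. Summed astrocyte markers in the class were at 2060, 1995 and 7578 CPM at 7 dpi and 3072, 2757 and 6712 CPM at 21 dpi in the Ctrl, ADWA11-treated and Tgfbr2-cKO libraries. Summed excitatory neuron markers were at 44.6, 53.3 and 203 CPM and then 34.3, 37.4 and 97.3 CPM. The part of any of these in the astrocyte ratios was not tested.

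Excitatory neurons were compared where at least 30 were measured, and 9 members were counted. For Tgfbr2-cKO at 7 dpi Nrp1, at 1.09 (0.70 to 1.5), was higher and Sema3c, at -1.39 (-2.28 to -0.31), Nrp2, at -1.38 (-1.90 to -0.82), and Plxnd1, at -2.15 (-2.5 to -1.78), were lower, beside 11.0% of 11223 genes, and Nrp1 was at -0.17 in female and 1.04 in male nuclei. At 21 dpi Sema3c, at -2.72 (-3.59 to -1.74), Sema3d, at -2.76 (-3.67 to -1.73), and Nrp2, at -1.95 (-2.70 to -1.10), were lower, beside 15.5%. Excitatory Sema3c turned to 0.096 at 7 dpi and 0.40 at 21 dpi without the 5 nuclei richest in it. Those 5 are a larger part of the Ctrl class, with 10 Sema3c UMIs in 95 nuclei at 7 dpi. The Tgfbr2-cKO class held 396 in 3948, so these values do not show a reversal. Sema3d at 21 dpi turned to 1.03 with log-normalised clustering and 0.45 with the listed genes kept in the clustering. Over time Sema3c, Sema3d and Nrp1, at 1.40 (0.10 to 2.75), 2.29 (0.68 to 4.14) and 1.31 (0.77 to 1.86), were higher and Plxnd1, at -1.52 (-2.54 to -0.63), was lower in Ctrl at 21 dpi, beside 14.4%. Of the 5 members beyond counting error over time that could be read in both sexes, 1 had that direction in both sexes, and Sema3a, Sema3c, Nrp1 and Plxnd1 did not. Under the same alternatives Sema3c over time turned to -0.58 and Sema3d to -1.43 and -0.94. Nrp1 over time was at -0.09 in female and -0.91 in male nuclei, both below 0, and Sema3c at -2.05 in female nuclei. The Ctrl class held 95 nuclei at 7 dpi, 17 of them female and 44 male, and 100 at 21 dpi, 43 female and 7 male, and 61.5% of its Sema3c UMIs at 21 dpi came from 1 nucleus. At 7 and 21 dpi it had summed endothelial markers of 20.8 and 190 CPM, against 10.3 and 18.4 CPM in the Tgfbr2-cKO class. Its summed fibroblast markers were at 395 and 1150 CPM, against 20 and 27 CPM, and its myeloid markers at 141 and 193 CPM, against 67.4 and 58.4 CPM. The part of any of them in the ratios for Tgfbr2-cKO or over time was not tested. Nrp1 in neurons was highest in a cluster with the deep-layer genes Fezf2, Tle4 and Foxp2, at 325 (316 to 334) and 390 (369 to 412) CPM, and this cluster was measured only in the Tgfbr2-cKO libraries.

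Inhibitory neurons gave 10 members to count. Beside the Sema3a values above, Sema3c, at -1.20 (-1.87 to -0.44), and Nrp2, at -1.04 (-1.86 to -0.08), were lower in Tgfbr2-cKO at 7 dpi, beside 12.3% of 11542 genes, and Sema3d, at -1.45 (-2.46 to -0.34), Nrp1, at -1.87 (-2.17 to -1.57), and Nrp2, at -1.06 (-1.49 to -0.62), were lower at 21 dpi, beside 13.5%. Sema3c at 7 dpi was at 0.21 in female and 0.11 in male nuclei, against the direction of the class. Without the 5 richest nuclei it turned to 0.85, and Sema3d at 21 dpi turned to 1.04. Those 5 are a larger part of the Ctrl class, with 18 Sema3c UMIs in 41 nuclei at 7 dpi. The Tgfbr2-cKO class held 770 in 2070, so these 2 values do not show a reversal. For ADWA11 at 21 dpi Sema3c, at 1.30 (0.58 to 2.06), was higher and Sema3d, at -3.26 (-8.67 to -0.50), and Sema3e, at -3.48 (-4.83 to -2.38), were lower, beside 11.7%. Summed endothelial markers in inhibitory neurons were at 181 CPM in that library and 48.5 CPM in Ctrl, and Sema3c was at 2.46 in female and 0.24 in male nuclei, while Sema3d turned to 0.29 in female nuclei. At 7 dpi they were at 32.5 CPM in Ctrl and 8.91 CPM in Tgfbr2-cKO, and their part in neuronal Sema3c was not tested. Summed fibroblast markers were at 566 CPM in Ctrl and 33 CPM in Tgfbr2-cKO inhibitory neurons at 7 dpi, and at 950 CPM in Ctrl, 415 CPM in ADWA11-treated and 42.8 CPM in Tgfbr2-cKO ones at 21 dpi. Summed myeloid markers were at 205 and 88.5 CPM at 7 dpi and 270, 297 and 106 CPM at 21 dpi in the same order, and the part of both lists in these ratios was not tested. Over time Nrp2, at 1.15 (0.24 to 2.18), was higher at 21 dpi, beside 16.3%. The neuronal classes held different clusters in different libraries, so these ratios compare mixtures.

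Other genes of the pathway were read in fibroblasts from lists of plexins, of semaphorins of classes 4 to 7, of co-receptors and signal transducers, and of VEGF ligands and receptors that share the neuropilins. Of these 5 of 6, 7 of 13, 14 of 20 and 7 of 8 genes had at least 5 CPM, and neither of the 2 other class 3 ligands did. For Tgfbr2-cKO at 7 dpi Nrcam, an adhesion partner of neuropilins, was higher, at 1.49 (1.11 to 1.86), as was the VEGF receptor Flt1, at 1.16 (0.72 to 1.59), and none was lower, 2 of the 33 beside 8.44% of all genes in either direction. Beside them the summed excitatory neuron markers of fibroblasts were at 185 CPM in Tgfbr2-cKO and 66.6 CPM in Ctrl, and the summed endothelial markers at 176 and 121 CPM, and their part was not tested. For ADWA11 at 7 dpi Sema4d was lower, at -1.07 (-1.27 to -0.87), 1 of 33 beside 4.95%. At 21 dpi 4 genes were higher in Tgfbr2-cKO, the lymphatic growth factor Vegfd, at 2.17 (1.98 to 2.37), the Sema4d receptor Plxnb1, at 1.57 (1.21 to 1.93), Sema5a, at 1.56 (1.47 to 1.65), and the adhesion protein Chl1, at 1.48 (1.31 to 1.66), and Plxna3 was lower, at -1.5 (-2.31 to -0.79). These 4 of 33 stand beside 5.91% of all genes that were higher, and the 1 beside 4.47% that were lower. Vegfd went from 11.7 CPM in Ctrl to 52.6 CPM and Sema5a from 67.8 to 200.2 CPM. For ADWA11 at 21 dpi Chl1 was higher, at 1.30 (1.17 to 1.44), and Flt1 lower, at -1.13 (-1.38 to -0.89), 2 of 33 beside 3.74% in either direction. Over time Sema6a, at -1.94 (-2.05 to -1.83), and Dpysl3, an intracellular transducer of Sema3a, at -1.02 (-1.06 to -0.98), were lower in Ctrl at 21 dpi, 2 of 33 beside 10.7% in either direction.

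Likeness to other genes was measured as the Pearson correlation of log2 CPM over 62 sums of a class in a library, which share their library, depth and background RNA, and is given as a description. Sema3a was most like Pcsk5, Cdh11 and Cemip (0.81, 0.80 and 0.79) and Plxna2 most like Flrt2, Gm16070 and Pcsk5 (0.92, 0.85 and 0.84). Sema3c was most like Mecom, Slco1a4 and Hmcn1 (0.79, 0.77 and 0.76), Sema3d like Efs, Has2os and Col9a1 (0.92, 0.88 and 0.84), Sema3e like Adam23, Gprasp2 and A330076H08Rik (0.82, 0.81 and 0.80), and Sema3f like Shank3, Lhx6 and Edn1 (0.79, 0.78 and 0.78). Nrp1 was most like Fcho2, Pan3 and Tec (0.88, 0.86 and 0.86), Nrp2 like Rrbp1, Heatr5a and Lrp5 (0.85, 0.84 and 0.84), Plxna4 like Etl4, Zfp697 and Upp2 (0.77, 0.75 and 0.75), and Plxnd1 like the endothelial TGFβ family receptors Eng and Acvrl1 and like Lnx2 (0.85, 0.81 and 0.81). Among the members themselves the closest pairs were Sema3a with Plxna2 (0.75) and Nrp1 with Plxnd1 (0.74), and Sema3e with Nrp1 was the most opposed (-0.67).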

How the data were processed

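UMIs were counted by the authors with Cell Ranger (7.2.0 per the file headers, 7.1.0 in the submitters' notes) against mm10, and the deposited matrices hold whole-number counts per gene and cell barcode. Barcodes in the lowest or highest 2.5% of UMIs or genes of a library, or in its highest 2.5% of mitochondrial share, were left out. Doublets were called but kept (5825 nuclei, no cluster above 50%). Nuclei were clustered with Seurat 5.3.0 and sctransform 0.4.2 on 3000 variable genes and 30 components, without 59 listed pathway genes. A cluster took a name when at least 3 markers of 1 set were raised 2-fold over the other nuclei or, failing that, over the median of the clusters. The osteoblast-like cluster had 7 fibroblast markers raised and was named instead for at least 3 bone genes among its 10 leading genes. In all 26 of 27 clusters took a name, and the other was left unnamed because of low UMIs. Counts were summed by class and library with Python 3.11.15 and SciPy 1.17.1, with exact Poisson intervals for levels and exact conditional binomial intervals for ratios, in classes of at least 30 nuclei and genes with a mean of at least 5 CPM. The ratio and its 2-fold call were tested on simulated class sums with counting error only, and the other steps were not. Alternatives (clustering, scaling, doublets, filters, sex, sub-cluster weights) are given at the end. All 10 members, list genes past 2-fold in fibroblasts (up to 5 each way) and the 3 genes most like each member were named. The members and lists were chosen with earlier results of these data known. Female and male nuclei were told apart by Xist and Y-linked UMIs.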

Additional observations from a re-analysis of the deposited data

Results flagged for a closer look

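Sema3e in astrocytes went opposite ways in the Tgfbr2-cKO and Ctrl comparison at the 2 time points. The log2 ratio was -1.44 at 7 dpi, with -0.58 in female and -2.46 in male nuclei, and 0.22 at 21 dpi, with 0.05 in female and 0.28 in male nuclei. Both sexes lay below Ctrl at 7 dpi. At 21 dpi the female ratio was small, and the ratios by sex carry no interval, so a reversal in each sex is not shown. The difference between the times was not tested, as there was 1 library per group. In Ctrl and Tgfbr2-cKO astrocytes summed precursor markers were at 6170 and 979 CPM at 7 dpi and 2140 and 839 CPM at 21 dpi. Summed excitatory neuron markers were at 44.6 and 203 CPM and then 34.3 and 97.3 CPM. Summed astrocyte markers were at 2060 and 7578 CPM and then 3072 and 6712 CPM. The part of these markers in astrocyte Sema3e was not tested. With log-normalised clustering the astrocyte cluster held 12 Ctrl nuclei at 7 dpi, so the ratio of that time was not formed there.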

How the results depend on the processing

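With 1 library per group a call here means a ratio past 2-fold whose counting interval leaves out 0, or the ratio alone where a mean has no interval (the mean of CPM per nucleus and equal sub-cluster weights). No paired analysis was possible because each group is 1 library, and the replicate number that all libraries carry only names them. In fibroblasts 1, 1, 3, 0 and 1 of 9 members were past 2-fold for Tgfbr2-cKO and ADWA11 at 7 dpi, Tgfbr2-cKO and ADWA11 at 21 dpi, and Ctrl over time, beside 8.44%, 4.95%, 10.4%, 3.74% and 10.7% of all genes. For Tgfbr2-cKO at 7 dpi this became 2 with TMM scaling, without the 5 nuclei richest in the gene, or without the low-UMI sub-cluster, 3 in female nuclei, and 2 at 1.5-fold. For ADWA11 at 7 dpi it became 0 with log-normalised clustering, with the listed genes kept in the clustering, as the mean of CPM per nucleus, in female nuclei and with equal sub-cluster weights, and 3 at 1.5-fold. For Tgfbr2-cKO at 21 dpi it became 2 as the mean of CPM per nucleus, 4 without the low-UMI sub-cluster, 0 with equal weights and 5 at 1.5-fold, and Plxna4 turned to 0.0959 with equal weights. For ADWA11 at 21 dpi it became 3 at 1.5-fold, and over time 0 as the mean per nucleus, 2 in female nuclei and 4 at 1.5-fold. Over the 11 alternatives that kept the 2-fold and 5 CPM marks, the share of all genes ran in the same order from 7.87% to 10.4%, 3.54% to 6.4%, 6.0% to 12.8%, 3.07% to 5.04% and 7.39% to 12.4%, and at 1.5-fold it was 16.8%, 13.2%, 21.3%, 9.51% and 24.6%. The low-UMI sub-cluster and the sub-cluster weights were alternatives added after seeing the data, and equal weights also drop the sub-clusters with under 30 nuclei in either library.

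In the other classes together 14 of 54, 3 of 35, 18 of 54, 10 of 45 and 11 of 54 pairs of a member and a class were past 2-fold in the same order, beside 11.5%, 6.75%, 10.5%, 7.44% and 13.3% of genes pooled over these classes. The same gene can count in several classes, which share their library. Log-normalised clustering gave 13 of 45, 2 of 26, 14 of 54, 11 of 45 and 8 of 45, beside 10.5%, 6.56%, 9.83%, 7.89% and 11.7%. It left 12 Ctrl astrocytes at 7 dpi, so the astrocyte ratios at 7 dpi and over time were not formed. Female nuclei gave 4 of 16, 5 of 26, 15 of 54, 11 of 45 and 5 of 26, beside 12.2%, 6.95%, 10.2%, 7.27% and 11.7%, and male nuclei 10 of 25 and 2, 6, 4 and 3 of 26, beside 10.9%, 7.06%, 7.59%, 7.48% and 10.7%. At 1.5-fold the counts without Tgfbr2-cKO at 21 dpi were 24, 10, 17 and 23 of the pairs with UMIs in both libraries, beside 17.8%, 13.2%, 13.8% and 21.5%. With pairs at a count of 0 in 1 library (mural Sema3e at 7 dpi, inhibitory Sema3d over time) the 10 and 23 were 11 and 24. For Tgfbr2-cKO at 21 dpi the count at 1.5-fold was 26 of 54, beside 18.0%. Leaving out the 5 richest nuclei gave 1 for ADWA11 at 7 dpi, beside 6.33%. As the mean of CPM per nucleus the counts were 20, 4, 22, 11 and 12 in the first order, beside 25.7%, 15.1%, 21.3%, 15.5% and 26.3%. For ADWA11 at 7 dpi and over time the share of these pairs thus lay below that of all genes. Ratios of low ligand counts changed sign. Without the 5 richest nuclei mural Sema3a for ADWA11 at 7 dpi went to -1.03. Excitatory Sema3c went to 0.096 and 0.40 for Tgfbr2-cKO at 7 and 21 dpi and to -0.58 over time. For Tgfbr2-cKO inhibitory Sema3c went to 0.85 at 7 dpi and inhibitory Sema3d to 1.04 at 21 dpi. In neurons those 5 nuclei are a larger part of the Ctrl than of the Tgfbr2-cKO class, so these Tgfbr2-cKO values show no reversal. Mural Sema3d for Tgfbr2-cKO at 21 dpi held 1 UMI, which falls among those nuclei. Its value of 0.23 rests on a floor of 3 counts. Without called doublets mural Sema3d for ADWA11 went to 0.27 at 7 dpi and 0.12 at 21 dpi. Excitatory Sema3d went to 1.03 with log-normalised clustering and 0.45 with the listed genes kept for Tgfbr2-cKO at 21 dpi, and to -1.43 and -0.94 over time. Inhibitory Sema3d for ADWA11 at 21 dpi was 0.29 in female nuclei. The cause was not tested.

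In the pathway lists 2, 1, 5, 2 and 2 of 33 genes were past 2-fold in fibroblasts, and the shares of all genes given first, with their ranges and the 1.5-fold shares, stand beside these counts too. For Tgfbr2-cKO at 7 dpi the count was 1 as the mean per nucleus, 6 in female and 4 in male nuclei, 4 without the low-UMI sub-cluster, 8 at 1.5-fold and 9 with a mean of at least 1 CPM. For ADWA11 at 7 dpi it was 0 without doublets or the low-UMI sub-cluster, 8 at 1.5-fold and 2 at 1 CPM. For Tgfbr2-cKO at 21 dpi it was 8 without the 5 richest nuclei and in female or male nuclei, 9 without the low-UMI sub-cluster or at 1 CPM, and 14 at 1.5-fold. For ADWA11 at 21 dpi it was 1 with log-normalised clustering, with at least 2000 UMIs or in female nuclei, 4 in male nuclei, 8 at 1.5-fold and 6 at 1 CPM. Over time it was 4 as the mean per nucleus and at 1 CPM, 5 without the 5 richest nuclei and 12 at 1.5-fold. With a mean of at least 1 CPM 45 genes were tested, beside 11.0%, 8.24%, 14.2%, 5.68% and 16.1% of all genes.

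TMM scaling reversed no member and shifted all ratios of a comparison together, by -0.21 in mural nuclei, 0.50 in inhibitory neurons and -0.17 in fibroblasts for Tgfbr2-cKO at 7 dpi. Mural nuclei and the neurons of the Ctrl and ADWA11-treated libraries were few, and low ligand levels rest on few UMIs.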
